A study of Arabidopsis thaliana with 9 samples.

Results

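The UGT genes of Arabidopsis encode glycosyltransferases that move a sugar from a UDP-sugar onto a small molecule. Transcripts of 47 of them were followed on ATH1 arrays, out of 22746 probe sets tested. A probe set was taken when the platform's annotation gave it a single gene whose symbol starts with UGT and a pair of digits. That rule reads the annotation and no signal, but the family itself was picked with earlier results of these arrays known. RefSeq matched all 47 by gene ID and holds 58 genes with such a symbol; the other 11, UGT75B1 and UGT74E2 among them, have no probe set of their own among the named ones and are not analysed here. Counts and rankings below therefore hold for the 47 and not for the whole family. A gene outside them may have changed more, as given below for UGT75B1. The 47 fall into 11 subfamilies, given by the number after UGT.

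The study asked how a lowered synthesis of 5-aminolevulinic acid (ALA), the first committed precursor of chlorophyll and haem, alters nuclear gene expression. Whole seedlings were grown for 3 days in darkness and then lit for 6 h, in 3 groups of 3 arrays each. Col-0 was the untreated wild type. GAB was Col-0 on medium with 10 µM gabaculin (gabaculine), which inactivates the aminotransferase that completes ALA. The mutant gun4-1, in the Col-0 background and untreated, carries a defect in the activator of Mg chelatase, so that it is altered at a step after ALA as well. The inhibitor was given in the medium, and the arrays cover a single dose and time. RNA came from whole seedlings, so fewer cells that express a gene and less RNA per cell cannot be told apart.

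UGTs carry a conserved stretch near the carboxyl end that binds the UDP-sugar, while the other end of the protein receives the acceptor. Glycosylation makes flavonoids, lignin precursors, hormones, defence compounds and foreign chemicals more soluble, alters their activity and prepares them for the vacuole. Subfamily numbers follow sequence likeness. Members of a subfamily may use different acceptors, and the activity of many was seen only with purified enzyme.

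All values are normalized log2 signals, so a difference of 1 is a doubling. They set the arrays of 1 probe set beside each other, not 1 gene beside another. Array medians ran from 6.41 to 6.57. Over the 47 probe sets, arrays of a group differed by a median SD of 0.120 (Col-0), 0.0932 (GAB) or 0.111 (gun4-1), against 0.0969, 0.0950 and 0.113 over all probe sets. Differences were tested in limma, in 1 fit of all arrays. SE stands for the standard error of a log2 fold change. To be called higher or lower, a probe set had to pass a p limit (0.05 or less after Benjamini-Yekutieli adjustment over all probe sets) and a fold limit (over 1.5, or under 0.667). The study's methods state in general that experiments were repeated independently, but whether the 3 RNA samples of a group had cultures of their own is stated neither there nor in the labels, so p-values may measure only a technical spread, and the number of arrays limits the precision. Of the 47, 26 had a mean signal below 6.50, the median over all probe sets, where a difference on this scale can understate that of the transcript. Among the marker genes of green tissue 3 probe sets were named, whose mean log2 signal per array was 12.33 to 12.40 (Col-0), 12.29 to 12.39 (GAB) or 11.99 to 12.10 (gun4-1). One of them, LHCB4.3, was lower in gun4-1 (log2 fold change -0.66), and no marker of roots was named. The part of tissue make-up in the results below was not tested.

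With GAB, 3 UGT transcripts rose and 1 fell, and in gun4-1 3 rose and 2 fell. The rises were in UGT73C1, UGT84A3 and UGT76E2 with GAB, and in UGT73B1, UGT87A2 and UGT76E2 in gun4-1. UGT78D1 fell in both and UGT71C1 in gun4-1. The 4 calls with GAB are 8.51% of the 47, where 1.46% of all probe sets were called, and the 5 in gun4-1 are 10.6%, where 6.90% were. By direction, 0.769% of all probe sets were called higher and 0.690% lower with GAB, and 2.44% and 4.46% in gun4-1. The median log2 fold change over the 47 was 0.05 with GAB and 0.13 in gun4-1, beside 0.00 and 0.02 over all probe sets. Values lay above 0 for 31 of the 47 in each comparison, where 50.0% and 55.1% of all probe sets did. The median size of the log2 fold change, whatever its sign, was 0.132 with GAB and 0.254 in gun4-1 over the 47, beside 0.0982 and 0.150 over all probe sets. Before adjustment, 29.8% and 57.4% of the 47 had a p under 0.05 in limma, beside 19.7% and 35.3% of all. For 27 of the 47 the 95% intervals in both comparisons, not adjusted for their number, lay within a 1.5-fold change either way. The Col-0 arrays serve both comparisons, so these are not independent. Without overlap between groups, 13 of the 47 were above and 3 below Col-0 with GAB (11.1% and 12.9% of all probe sets), 17 and 7 in gun4-1 (18.0% and 18.0%), and 10 and 13 in gun4-1 against GAB (15.6% and 14.2%).

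**Figure D1:**
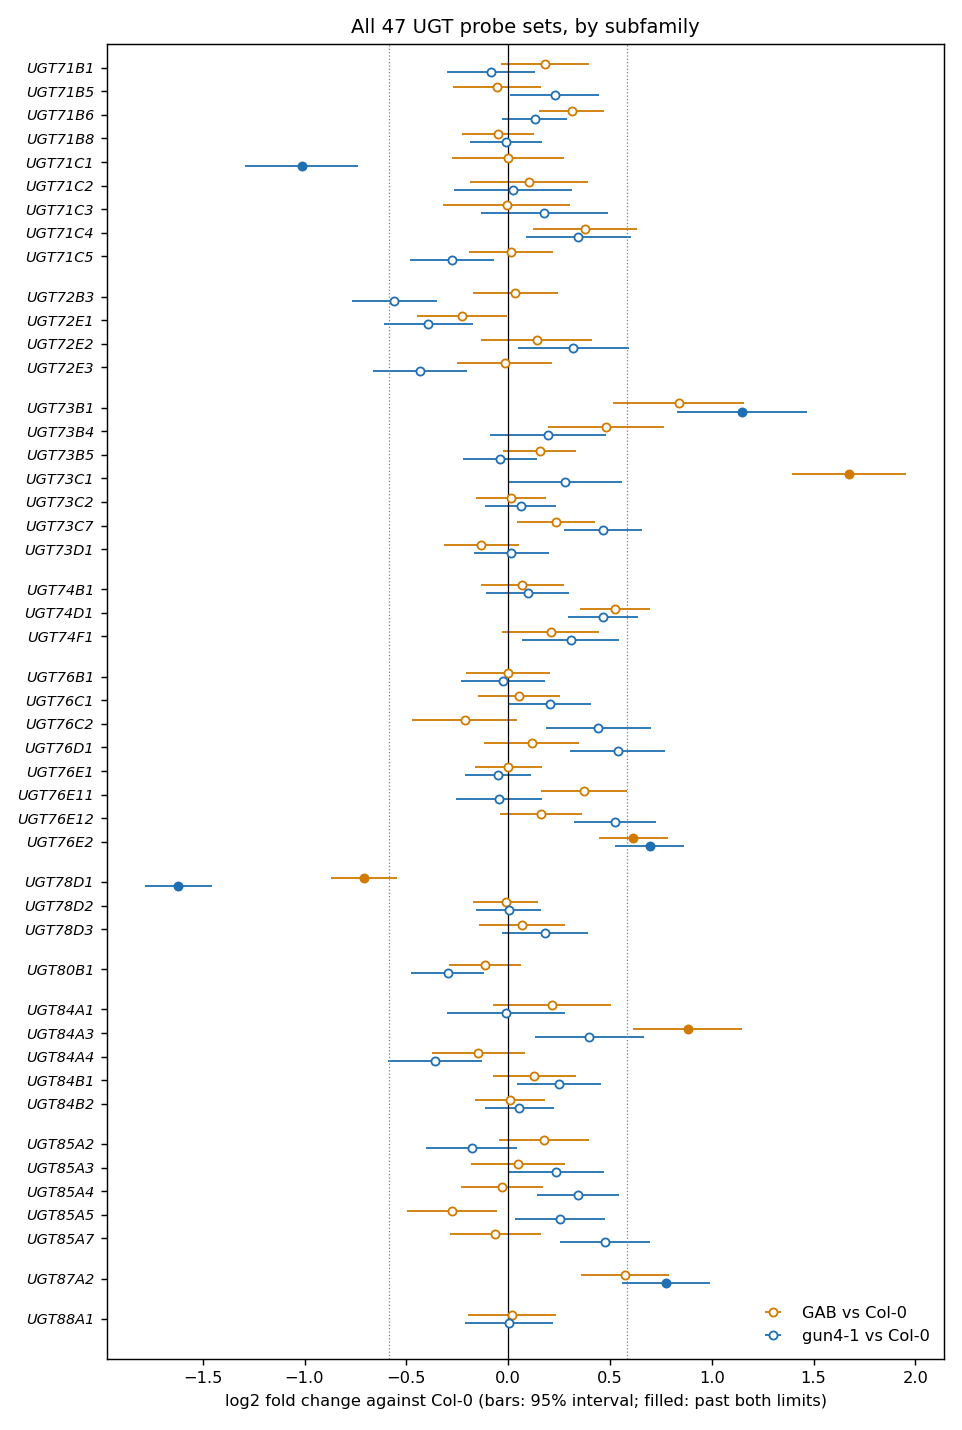
Log2 fold change against Col-0 (horizontal axis) of the 47 UGT probe sets, grouped by subfamily, for GAB (orange) and gun4-1 (blue). Bars are 95% intervals from limma, dotted lines mark the 1.5-fold limits, and filled points passed both limits; UGT78D1 lies lowest in both and UGT73C1 highest with GAB.

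The flavonoid glycosyltransferases of subfamily 78 were measured with 3 members, which sit together in flavonol and anthocyanin modification. UGT78D1 (AT1G30530), which adds rhamnose to flavonols, read 8.97, 8.86 and 8.85 in Col-0, 8.20, 8.14 and 8.21 in GAB, and 7.33, 7.28 and 7.20 in gun4-1. The 3 groups did not overlap, and GAB lay between the other groups. It fell by 0.71 with GAB (SE 0.08, adjusted p = 0.0024 from limma), to 0.612 of its Col-0 level, and by 1.62 in gun4-1 (SE 0.08, adjusted p = 6.7e-07), to 0.325. UGT78D2 (AT5G17050), which adds glucose to flavonols and anthocyanidins, stayed between 8.79 and 8.91 on all 9 arrays. Its log2 fold changes were -0.01 with GAB (95% interval -0.17 to 0.15) and 0.00 in gun4-1 (-0.16 to 0.16). UGT78D3, an arabinosyltransferase of flavonols with low signals near 4.2, had 0.07 and 0.18, and was not called. Among flavonoid UGTs of other subfamilies, UGT76E12 had 0.16 with GAB and 0.52 in gun4-1. There it passed the p limit (adjusted p = 0.0157 from limma) and not the fold limit. UGT71C4 had 0.38 and 0.34, and passed neither limit (adjusted p = 0.868 and 0.577). Its highest Col-0 array lay below the lowest of each other group, as did 11.1% of all probe sets with GAB and 18.0% in gun4-1.

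**Figure D2:**
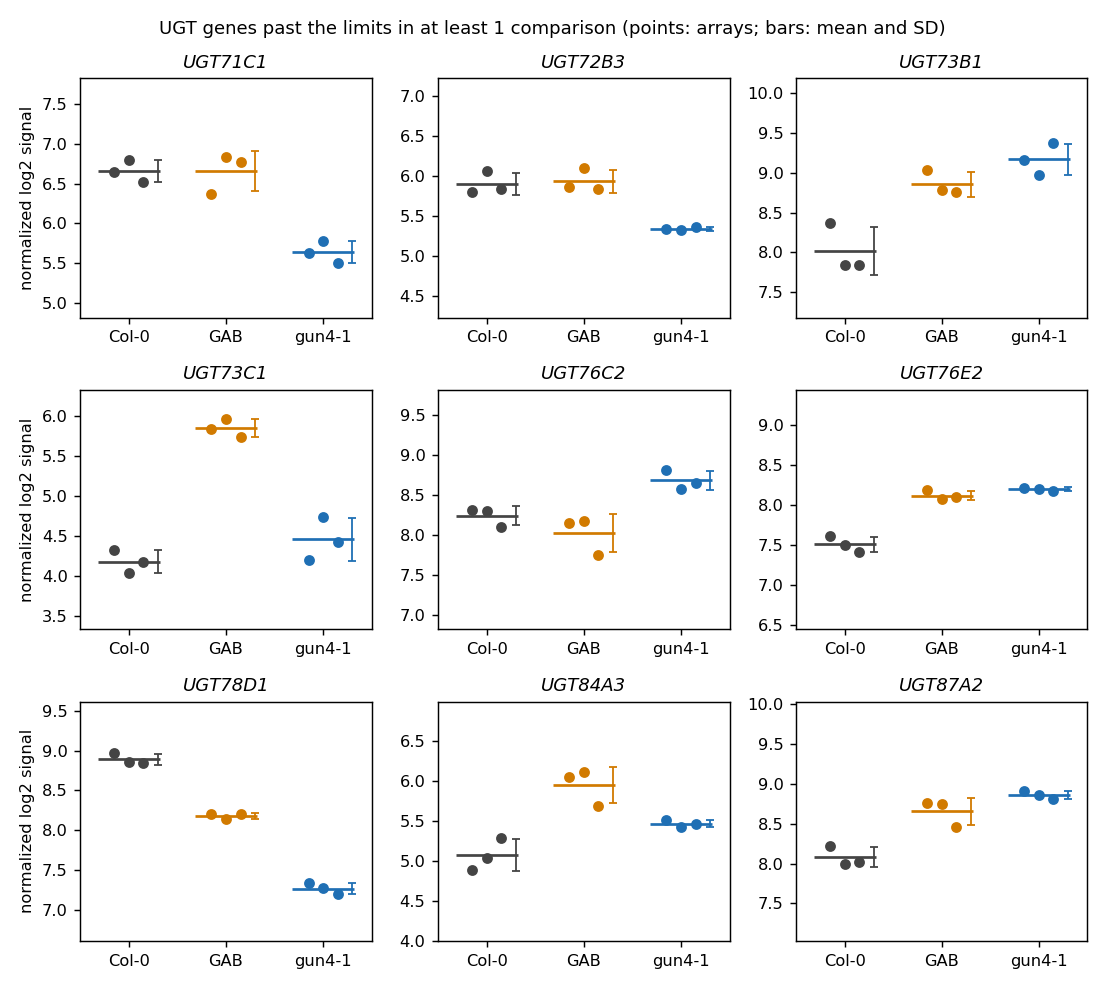
Normalized log2 signal (vertical axis) on each of the 3 arrays of Col-0, GAB and gun4-1 for the 9 UGT genes called in at least 1 of the 3 comparisons. Points are arrays and bars the mean and SD; every panel spans the same range of log2 units around its own mean. UGT78D1 steps down from Col-0 over GAB to gun4-1, and UGT73C1 is high on the GAB arrays.

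Subfamily 73, whose members take many acceptors including foreign compounds, had the largest rise among the 47. In the study's own list from these arrays, UGT75B1, not analysed here, rose more with GAB than any of the 47. The list has UGT75B1 raised in gun4-1 as well, but the study's quantitative PCR of that gene did not show either rise. UGT73C1 (AT2G36750), which can glucosylate breakdown products of the explosive TNT and, as purified enzyme, cytokinins, read 4.32, 4.03 and 4.17 in Col-0, 5.84, 5.97 and 5.74 in GAB, and 4.20, 4.74 and 4.42 in gun4-1. GAB stood apart from both other groups, which overlapped each other. The rise with GAB was 3.20-fold (SE 0.13 on the log2 scale, adjusted p = 0.00024 from limma), while in gun4-1 the log2 fold change was 0.28 (95% interval -0.0003 to 0.56). The next member by gene order, UGT73C2, lay between 3.07 and 3.29 on all arrays, near the lower end of the signals, where a change might not show.

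UGT73B1 (AT4G34138), which acts on flavonoids and abscisic acid as purified enzyme, read 8.37, 7.85 and 7.85 in Col-0, 9.04, 8.78 and 8.75 in GAB, and 9.16, 8.97 and 9.37 in gun4-1. Both groups lay above all Col-0 arrays, and overlapped each other. It rose 2.22-fold in gun4-1 (log2 fold change 1.15, SE 0.15, adjusted p = 0.0016 from limma). With GAB its log2 fold change of 0.84 did not pass (adjusted p = 0.0559), but did so without Col-0 replicate 1, the highest Col-0 array (1.01, adjusted p = 0.0164). On leaving out any other single array it did not pass. The adjusted p from limma was 0.342 and 0.300 for Col-0 replicates 2 and 3. It was 0.273, 0.205 and 0.147 for the GAB replicates, and 0.0980, 0.0577 and 0.0691 for the gun4-1 ones. UGT73B4, which also acts on products of TNT, had the next largest value with GAB in this subfamily (0.48, adjusted p = 0.498) and 0.19 in gun4-1. UGT73C7 had 0.24 and 0.47, in gun4-1 past the p limit (adjusted p = 0.0235) and short of the fold limit. UGT73D1 and UGT73B5 had values between -0.13 and 0.15 in both comparisons. In all, 1 of 7 members was called with GAB and 1 in gun4-1, where 1.46% and 6.90% of all probe sets were. Above 0 lay 6 of 7 in each, beside 50.0% and 55.1% of all probe sets. Of the 7, 5 were among the weakly expressed ones, UGT73C1 included.

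In subfamily 76, with 8 members, UGT76E2 (AT5G59590) was the only one of the 47 called higher in both comparisons. The study's own list from these arrays has further UDP-glucosyl transferase genes, outside the 47, raised more than UGT76E2 in both. Its quantitative PCR at 6 h of light did not show those rises. UGT76E2 read 7.61, 7.50 and 7.41 in Col-0, 8.19, 8.07 and 8.10 in GAB, and 8.22, 8.20 and 8.18 in gun4-1. Neither group overlapped Col-0. The rise was 1.53-fold with GAB (SE 0.08 on the log2 scale, adjusted p = 0.0070 from limma) and 1.62-fold in gun4-1 (adjusted p = 0.00060). With GAB it is close to the fold limit, and was just under it without Col-0 replicate 3 (log2 fold change 0.56) and without GAB replicate 1 (0.58).

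Cytokinin N-glucosyltransferases also belong to subfamily 76, and of these UGT76C2 was called only where gun4-1 was set against GAB. UGT76C2 (AT5G05860) read 8.32, 8.30 and 8.10 in Col-0, 8.15, 8.18 and 7.75 in GAB, and 8.82, 8.58 and 8.65 in gun4-1. All gun4-1 arrays lay above the others. It was 1.58-fold higher in gun4-1 than with GAB (log2 fold change 0.66, SE 0.12, adjusted p = 0.0339 from limma), while against Col-0 the values were -0.21 with GAB and 0.44 in gun4-1, neither of which passed. UGT76C1 had 0.05 and 0.21. UGT76D1, which glucosylates hydroxylated benzoic acids related to salicylic acid, lay at 4.17 to 4.52 in Col-0, 4.32 to 4.59 in GAB and 4.79 to 5.01 in gun4-1. Its log2 fold change in gun4-1 was 0.54 (adjusted p = 0.0337), the largest against Col-0 among those of the 47 that no comparison called, and short of the fold limit. UGT76B1, which glucosylates isoleucic and salicylic acid, had 0.00 with GAB and -0.03 in gun4-1, and the flavonoid glucosyltransferase UGT76E11 0.37 and -0.05. The direct call of UGT76C2 is not firm: the adjusted p rose to 0.0575 when Col-0 replicate 1 was left out and to 0.0693 when replicate 2 was. It was 0.0608, 0.0564 and 0.103 on dropping GAB replicates 1, 2 and 3 in turn, and 0.172, 0.0582 and 0.122 on dropping the gun4-1 ones.

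Among UGTs of phenylpropanoids, 1 of 6 was called with GAB and none in gun4-1, where 1.46% and 6.90% of all probe sets were. At these shares, 6 members would hold few or no calls. UGT84A3 (AT4G15490), which forms glucose esters of hydroxycinnamic acids, read 4.89, 5.04 and 5.28 in Col-0, 6.05, 6.11 and 5.69 in GAB, and 5.52, 5.42 and 5.47 in gun4-1. The 3 groups did not overlap, with gun4-1 between the others. It rose 1.84-fold with GAB (SE 0.12 on the log2 scale, adjusted p = 0.0132 from limma), and had a log2 fold change of 0.40 in gun4-1 (adjusted p = 0.372). The call with GAB ended without Col-0 replicate 1 or 2 (adjusted p = 0.0660 and 0.0996) and without GAB replicate 1 or 2 (0.0780 and 0.0913). UGT84A3 is also among the UGTs with a mean signal below the median over all probe sets. Its relatives UGT84A1 and UGT84A4 had 0.21 and -0.15 with GAB, and -0.01 and -0.36 in gun4-1. The monolignol glucosyltransferases UGT72E1 and UGT72E3 had -0.39 and -0.43 in gun4-1, without passing (adjusted p = 0.153 and 0.126), and UGT72E2 had 0.32 (adjusted p = 0.916).

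The decrease of UGT71C1 (AT2G29750), which accepts several phenolic compounds as purified enzyme, was seen in gun4-1. It read 6.65, 6.80 and 6.52 in Col-0, 6.36, 6.83 and 6.77 in GAB, and 5.63, 5.78 and 5.51 in gun4-1. Col-0 and GAB overlapped, and all gun4-1 arrays lay below them. Its level in gun4-1 was 0.495 of that in Col-0 (log2 fold change -1.01, SE 0.13, adjusted p = 0.0013 from limma) and 0.495 of that with GAB, whereas the log2 fold change with GAB was 0.00 (95% interval -0.28 to 0.28). None of the other 8 members of subfamily 71 was called in any comparison. Of all probe sets, 1.46% were called with GAB, 6.90% in gun4-1 and 3.80% in gun4-1 against GAB, so few calls among 8 members would be usual. These members include UGT71B6, UGT71B8 and UGT71C5, which glucosylate abscisic acid, with 0.31, -0.05 and 0.01 in GAB and 0.13, -0.01 and -0.28 in gun4-1. For UGT71B6 the deposited value is the same on all gun4-1 arrays, so that its SD of 0 there understates the error.

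UGT72B3 (AT1G01420), a relative of an enzyme that glucosylates chlorinated phenols, had a like pattern with a smaller difference. It read 5.80, 6.06 and 5.83 in Col-0, 5.86, 6.10 and 5.84 in GAB, and 5.33, 5.32 and 5.36 in gun4-1. The gun4-1 arrays were below all others. Against GAB it was lower (log2 fold change -0.60, SE 0.10, adjusted p = 0.0150 from limma). Against Col-0 it passed the p limit (-0.56, adjusted p = 0.0124) and missed the fold limit, which it passed without Col-0 replicate 1 (-0.61) or 3 (-0.59). The p limit was lost without Col-0 replicate 2 (-0.48, adjusted p = 0.0690 from limma) or gun4-1 replicate 1 (0.0532). The value against Col-0 was -0.47 after quantile normalization and -0.46 after median centring. The call against GAB ended without GAB replicate 2 (adjusted p = 0.0791), on dropping gun4-1 replicate 1, 2 or 3 (0.0671, 0.0573 and 0.0621), and by the fold limit after quantile normalization (-0.55) or median centring of the arrays (-0.54).

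UGT87A2 (AT2G30140), linked to the time of flowering, read 8.22, 7.99 and 8.02 in Col-0, 8.76, 8.74 and 8.46 in GAB, and 8.90, 8.86 and 8.81 in gun4-1. Neither group overlapped Col-0. It rose 1.71-fold in gun4-1 (SE 0.10 on the log2 scale, adjusted p = 0.0015 from limma). With GAB the log2 fold change was 0.57, past the p limit (adjusted p = 0.0490) and just short of the fold limit. It passed both without GAB replicate 3 (0.67, adjusted p = 0.0291), but the p limit was lost on leaving out any other single array: 0.0630, 0.289 and 0.262 for Col-0 replicates 1, 2 and 3, 0.257 and 0.299 for GAB replicates 1 and 2, and 0.0791, 0.0752 and 0.0847 for the gun4-1 ones. It was also lost after quantile normalization (0.0583) and median centring (0.0589), and in a fit of Col-0 and GAB alone (0.148). UGT74D1 (AT2G31750), an auxin glucosyltransferase, lay at 9.58 to 9.60 in Col-0, 10.05 to 10.17 in GAB and 9.95 to 10.17 in gun4-1. Its log2 fold changes of 0.52 and 0.47 passed the p limit (adjusted p = 0.0211 and 0.0116) and not the fold limit. The salicylic acid glucosyltransferase UGT74F1 had 0.21 and 0.31, UGT74B1, which completes the core of glucosinolates, 0.07 and 0.10, and the sterol glucosyltransferase UGT80B1 -0.11 and -0.30; none passed. UGT88A1 had 0.02 and 0.00.

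No member of subfamily 85, with 5 on the array, was called in any comparison. Of all probe sets, 1.46% were called with GAB, 6.90% in gun4-1 and 3.80% in gun4-1 against GAB, so no call among 5 members would be usual. The log2 fold changes of the 5 members ran from -0.27 to 0.18 with GAB and from -0.18 to 0.48 in gun4-1. UGT85A5 and UGT85A7 differed between gun4-1 and GAB by 0.53 and 0.54, past the p limit (adjusted p = 0.0488 and 0.0456 from limma) and short of the fold limit. On the UGT85A7 arrays gun4-1 read 5.80, 5.46 and 5.75, and GAB 5.21, 5.14 and 5.05. After median centring of the arrays both passed, and after quantile normalization UGT85A7 did. UGT85A2 pointed the other way, with -0.36 (adjusted p = 0.387).

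Whether the mutant and the inhibitor differed was tested by setting gun4-1 directly against GAB. UGT73C1, UGT71C1, UGT78D1 and UGT72B3 were lower in gun4-1, and UGT76C2 was higher. These are 10.6% of the 47, where 3.80% of all probe sets were called; by direction 1.32% were called higher and 2.48% lower. UGT73C1 differed most, at 0.380 of its GAB level (log2 fold change -1.40, SE 0.13, adjusted p = 0.00027 from limma). UGT78D1 was at 0.531 (-0.91, SE 0.08, adjusted p = 0.00014). UGT76E2 and UGT73B1 did not pass, with log2 fold changes of 0.08 (95% interval -0.09 to 0.25) and 0.31 (-0.01 to 0.63), nor did UGT84A3, with -0.48 (-0.75 to -0.22). The balance moved with the scaling: 4 of the 5 called were lower (80.0%), after quantile normalization 3 of 5 (60.0%) and after median centring 3 of 6 (50.0%). Against Col-0, 2 of 5 calls in gun4-1 were lower (40.0%), and 2 of 7 (28.6%) after median centring, when UGT76D1 and UGT76E12 also passed. The balance over all probe sets moved as well. In gun4-1 against GAB 300 were higher and 564 lower, 313 and 530 after quantile normalization, and 388 and 495 after median centring. Against Col-0, 556 were higher and 1014 lower in gun4-1, and 859 and 768 after median centring. The shift is therefore not particular to the 47.

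Many UGT genes lie in rows of close relatives. In RefSeq gene order 31 of the 47 form 13 runs of members at most 3 genes apart, and 5 of these runs hold a called gene. In no run were all members called in 1 comparison, but with so few calls this cannot show whether neighbours respond alike. UGT76E2 rose in both comparisons, while its neighbour UGT76E1 had 0.00 with GAB (95% interval -0.16 to 0.16) and -0.05 in gun4-1, at signals of 3.27 to 3.44 that are near the lower end of the array. UGT71C1 fell in gun4-1 by 1.01, and UGT71C2 beside it, at signals of 6.51 to 7.04, had 0.03 (-0.27 to 0.32). UGT84A3 lies between UGT84A1 and UGT84A4, and its interval with GAB, 0.62 to 1.15, did not overlap theirs. The values of neighbours were not tested against each other, and probes of close relatives may bind each other's transcripts.

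**Figure D3:**
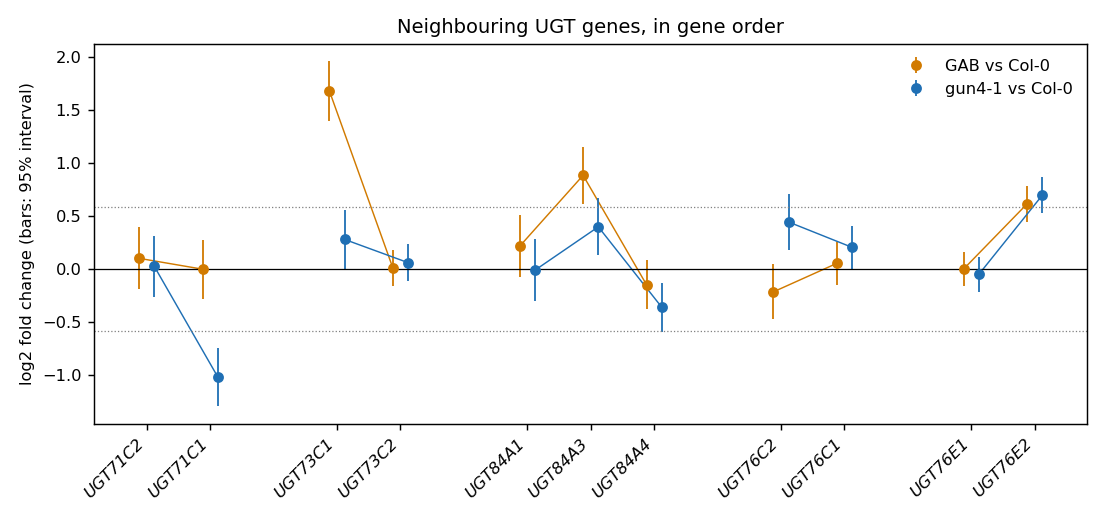
Log2 fold change against Col-0 (vertical axis) for the 5 runs of neighbouring UGT genes that hold a called gene, in RefSeq gene order, with GAB in orange and gun4-1 in blue. Bars are 95% intervals from limma and dotted lines the 1.5-fold limits. UGT73C1, UGT84A3, UGT76E2 and UGT71C1 each stand apart from the gene beside them in at least 1 comparison. UGT73C2 and UGT76E1 have signals near the lower end of the array, where a change might not show.

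Outside the 47, 3 probe sets match a UGT together with another gene. The set shared by UGT73B2 and UGT73B3, relatives of UGT73B1, was higher with GAB (log2 fold change 0.67, SE 0.10, adjusted p = 0.0263 from limma), had 0.47 in gun4-1 (adjusted p = 0.0661), and cannot be given to either gene. The set of AT1G73885 and UGT89B1 was called in gun4-1 against GAB (0.60, adjusted p = 0.0066), and that of UGT71D1 and AT2G29710 in no comparison.

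Other genes of conjugation and of its acceptors were counted by symbol, as far as the annotation names them. Over all probe sets, 0.769% were called higher and 0.690% lower with GAB, 2.44% and 4.46% in gun4-1, and 1.32% and 2.48% in gun4-1 against GAB. At these shares, lists this short would hold few or no calls. Of 13 glutathione transferases, which join glutathione to reactive compounds, 2 were higher with GAB, and in gun4-1 1 was higher and 1 lower. GSTU16 rose in both (1.54-fold each, adjusted p = 0.0087 and 0.0019 from limma), as UGT76E2 did. GSTU25, like UGT73C1, was high with GAB alone among the 3 groups: it was at 0.179 of its GAB level in gun4-1 (adjusted p = 9.1e-05). GSTU23 was lower in gun4-1, with -1.77 against Col-0 (adjusted p = 6.6e-05 from limma) and -1.20 against GAB (adjusted p = 0.0023). No other glutathione transferase of the list was called in gun4-1 against GAB. Of 20 beta-glucosidases, which release sugars from glucosides, none was called with GAB and 2 were lower in gun4-1, BGLU15 (-0.73) and BGLU47 (-0.61). In gun4-1 against GAB only BGLU15 was called, and was lower (-0.76, adjusted p = 0.0354 from limma). Of 22 cytochromes P450 none was called with GAB or in gun4-1 against GAB, and 2 were lower in gun4-1. Of 6 genes that make phenylpropanoids and flavonoids, none was called with GAB, where the lowest log2 fold change was -0.89. In gun4-1 1 was lower: DFR, an enzyme of anthocyanin synthesis, with -1.43 (SE 0.18, adjusted p = 0.0014 from limma). None of the 6 was called in gun4-1 against GAB. Of 5 GH3 genes, which join hormones to amino acids, GH3.9 was lower in gun4-1 (-1.16). With GAB none of the 5 was called, at a lowest value of -0.62, nor was any in gun4-1 against GAB. None of 6 serine carboxypeptidase-like genes was called with GAB or in gun4-1. For 1 gene of UDP-sugar supply, the only one named, the values were -0.12 and -0.05. The median log2 fold changes of the lists with at least 5 genes ran from -0.03 to 0.03 with GAB and from -0.15 to 0.08 in gun4-1.

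**Figure D4:**
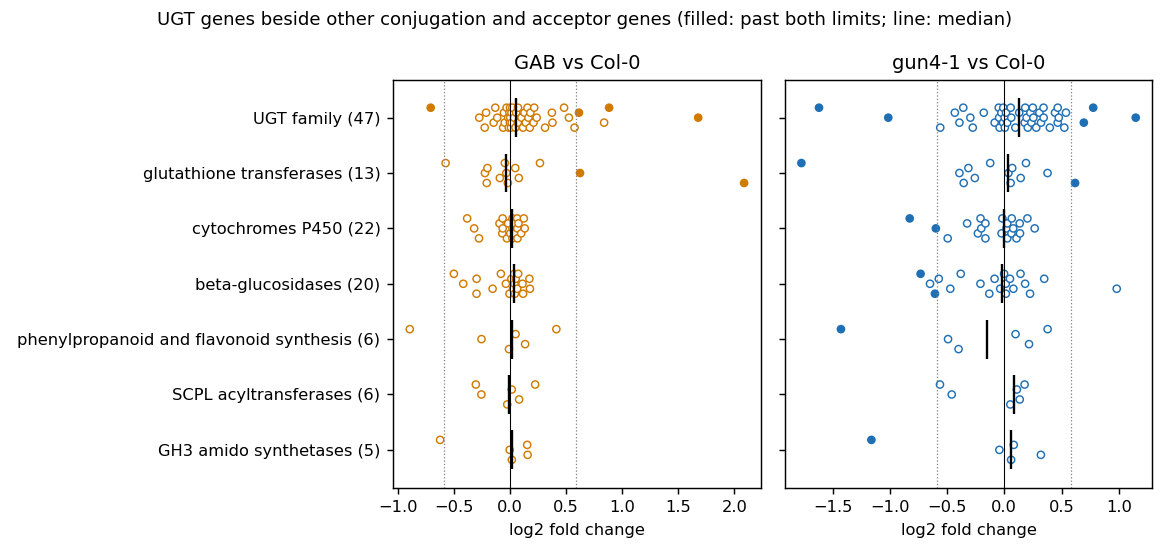
Log2 fold change (horizontal axis) with GAB (left) and in gun4-1 (right) of the 47 UGT probe sets and of 6 other gene lists, with the number of probe sets in brackets. Each point is a probe set, filled where it passed both limits; black lines are medians and dotted lines the 1.5-fold limits. Most genes of every list lie near 0.

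The genes whose pattern over the 9 arrays was most like that of UGT73C1 were AT2G41380 (Pearson r 0.970), AT3G48450 (0.965), AT2G41730 (0.961) and AT5G56260 (0.961). AT2G41380 and AT2G41730 were called higher with GAB, with log2 fold changes of 1.71 and 1.79, and the others had 0.52 and 0.55 and were not called. In gun4-1 all 4 had values between 0.04 and 0.26. The arrays fall into 3 groups, so these correlations mainly describe which genes were high on the GAB arrays.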

How the data were processed

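RNA of whole seedlings was hybridized to 9 ATH1 arrays, 3 per group. The authors turned probe signals into 1 log2 value per probe set with robust multi-array average (RMA), and deposited these. Affymetrix Expression Console is the tool in the submitters' processing notes, and its version is not given in the sources used here. Background correction, quantile scaling and probe summary were kept as deposited. RMA values were equal on at least 2 arrays for 17 of the 47 UGT probe sets. Samples were grouped by their titles.

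Without 64 control probe sets, 22746 remained and were fitted in limma 3.58.1 (R 4.3.3), as 1 model of the 3 groups with 6 residual and 5.91 prior degrees of freedom, with the adjustment and fold limits of the study's methods (Benjamini-Yekutieli, 0.05, 1.5 and 0.667). The fit was tested on simulated data. Single genes are named for 13513 probe sets through the platform annotation; 503 have several and 8730 are unnamed here. Gene order is from RefSeq (TAIR10.1), whose coordinates are not printed as the array's build is not given. Members and lists were chosen with earlier results of these data known, so lists are described by counts and medians only. Array values are printed for UGT genes called in any comparison; of the others, the 4 with the largest change and the extremes of subfamilies of 3 or more are given, besides genes named for their role. No member of the lists of DTX and ABC transporters, sulfotransferases and root markers is named, and these are not analysed here.

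Alternatives covered the adjustment, the fold limit (none or 2), quantile normalization and centring, dim and shared probe sets, the variance model, array weights, fits of 2 groups, the replicate number as a block and each array left out.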

Additional observations from a re-analysis of the deposited data

Results flagged for a closer look

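The direct comparison of gun4-1 with GAB marked 5 UGT genes whose response differed between the mutant and the inhibitor (limma, n = 3 arrays per group). UGT73C1 had a log2 fold change of -1.40 between them and UGT71C1 one of -1.01. UGT78D1, which fell in both against Col-0, fell further in gun4-1 (-0.91). UGT72B3 had -0.60 and UGT76C2 0.66, and both calls were lost on leaving out single arrays, as given above.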

How the results depend on the processing

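No UGT changed sign under any alternative in a comparison that called it. Where they were not called, values near 0 did: with GAB, UGT71C1 ran from -0.09 to 0.15 and UGT72B3 from -0.05 to 0.12. With no fold limit 5 UGTs were higher with GAB, 7 in gun4-1 and 3 in gun4-1 against GAB; with a fold limit of 2 these counts were 1, 1 and 0, with 0 lower with GAB and 2 lower in gun4-1 against GAB. Array weights gave 5 higher with GAB, and 196 over all probe sets. UGT73B1 passed with GAB under Benjamini-Hochberg adjustment (adjusted p = 0.0053), a trended robust variance (0.0132), array weights (0.0281) and without dim probe sets (0.0251). It did not pass after quantile normalization (adjusted p = 0.0623 from limma), after median centring (0.0627) or in a fit of Col-0 and GAB alone (0.122). Centring arrays on their median gave 5 higher in gun4-1 and 3 against GAB, and quantile normalization 2 against GAB. Counts over all 22746 probe sets moved too. In the main fit 175 were higher with GAB, 556 in gun4-1 and 300 in gun4-1 against GAB. These became 211, 959 and 427 with no fold limit, and 65, 167 and 92 with a limit of 2. With that limit 32 were lower with GAB and 232 in gun4-1 against GAB, in place of 157 and 564. Centring gave 859 higher in gun4-1 and 388 against GAB, and quantile normalization 313 against GAB. Fitting only the 2 groups compared gave 0 UGTs higher in gun4-1 against GAB, and ended the call of UGT84A3 with GAB (adjusted p = 0.0669 from limma). Over all probe sets that fit gave 251 higher in gun4-1 against GAB, in place of 300. Without dim probe sets, which leaves 21 of the 47, 2 UGTs were higher with GAB, 1 was lower in gun4-1 and 1 in gun4-1 against GAB. Over the 11373 probe sets left, these counts were 143, 644 and 392. UGT73C1, UGT84A3, UGT71C1 and UGT72B3 are themselves dim and drop out, while UGT73B1 then passes with GAB. With 1 array left out, 1 to 4 UGTs were higher and 1 to 1 lower with GAB. For gun4-1 these ranges were 3 to 5 and 2 to 3 against Col-0, and 0 to 1 and 3 to 4 against GAB. Over all probe sets, 100 to 166 were then higher and 79 to 150 lower with GAB. For gun4-1 they were 502 to 561 and 805 to 1003 against Col-0, and 224 to 301 and 420 to 551 against GAB. The fewest UGTs higher with GAB (1) came without GAB replicate 1, and the most in gun4-1 (5) without Col-0 replicate 2. Over all probe sets 110 and 502 were higher in these fits. The cause of these shifts was not tested, apart from the fewer probe sets or arrays themselves.

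The replicate number as a block added UGT73B1 to those higher with GAB (4 in place of 3; adjusted p = 0.0259 from limma) and changed no other call. Over all probe sets the block gave 192 higher and 188 lower with GAB, in place of 175 and 157. Arrays of the same number deviated together with correlations of -0.07 to 0.26, over 0.1 for 6 of 9 pairs. For arrays of unlike number these were -0.34 to 0.19, over 0.1 for 5 of 18 pairs. The labels do not say that the numbers are pairs, and the main fit did not use them as such. Whether arrays of the same number shared a batch was not tested.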
